A study of Mus musculus with 6 samples.

Results

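The genes of antigen presentation were examined here in cells sorted as satellite cells, which are the stem cells of muscle fibres. They were taken by name from the one deposited table, as every row whose symbol starts with H2-, together with B2m, Cd74, Ciita, Nlrc5, Tap1, Tap2, Tapbp, Tapbpl, Psmb8, Psmb9, Psmb10 and Erap1. The rule found 56 of 23361 rows, and no measured value entered it. Of these rows, 31 were class I heavy chains, 9 belonged to class I peptide supply and loading, and 10 were class II chains with their exchange proteins. The other rows were the class II chaperone Cd74, the transactivators Ciita and Nlrc5, and 3 further H2-K names (H2-K2, H2-Ke2 and H2-Ke6).

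Hindlimb muscle of mice aged 4 months was digested with collagenase, cells positive for Sdc4, a surface proteoglycan of satellite cells, were sorted, and their total RNA was sequenced in 3 wild-type (WT) and 3 AUF1-null (KO) samples. The labels give both genotypes a mixed breeding of C57BL/6 and 129 strains. AUF1, encoded by Hnrnpd, binds AU-rich elements of messenger RNAs. The labels give neither the sexes nor the deleted part of the gene, and they do not say whether each sample came from a separate mouse. The table holds 1 FPKM value (fragments per kilobase of transcript, scaled to the mapped fragments of the library) for each of 2 conditions, named q1 and q2, pooled by the authors over replicates; its headings name no unit, and FPKM is that of the Cuffdiff layout. The labels tie neither condition to a genotype; the table is named with WT ahead of KO, a file name being no basis for a group here, and Hnrnpd itself, at 7.498 FPKM in q1 and 5.59 FPKM in q2 in the authors' deposited table (log2 difference -0.42, Cuffdiff q = 0.999), was lower in q2 without passing the test. Every difference is therefore given as q2 relative to q1, no SD or n stands beside a value, and the only test is the authors' own Cuffdiff p with its q adjusted over 14858 tested genes. The sorted cells were a mixture by their markers. Of satellite cells, Pax7 was at 1.16 and 0.85, Myf5 at 16.7 and 17.8 and Chodl at 32.1 and 21.7 FPKM in the authors' deposited table. Sdc4, the sorting marker, was at 173 and 269.7 FPKM in the authors' deposited table. Pecam1 of endothelium was at 421 and 327 FPKM in the authors' deposited table. Of macrophages, C1qb was at 319 and 468 and Emr1 at 26.3 and 23.5 FPKM in the authors' deposited table. In such bulk RNA, fewer cells of a type and less RNA per cell cannot be told apart.

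Class I molecules pair a heavy chain with beta-2 microglobulin and show peptides of cytosolic proteins on nearly all nucleated cells. The proteasome cuts those peptides, and its subunits Psmb8, Psmb9 and Psmb10 replace Psmb5, Psmb6 and Psmb7 under interferon gamma to form the immunoproteasome. The transporter of Tap1 and Tap2 carries the peptides into the endoplasmic reticulum, where Tapbp and Tapbpl edit the loaded set and Erap1 trims it. Class II molecules show peptides of endocytosed proteins and are largely restricted to dendritic cells, macrophages and B cells, with induction by interferon gamma elsewhere. Their alpha and beta chains assemble on the invariant chain, Cd74, whose remnant is exchanged for peptide by H2-DM, which H2-DO inhibits. Ciita drives the class II promoters through proteins bound to the X and Y boxes, and Nlrc5 acts on class I promoters in a related way.

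Promoter stretches of 4 class II genes are shown first, because these genes lay to the same side in the comparison that follows. They come from the RefSeq promoter windows of GRCm38.p6, which run from 250 bases before to 50 after each start and were found for 38 of the 56 gene names among the members. The chromosome of Cd74 was left out when the windows of members were taken, so no promoter of Cd74 was searched. Capitals mark matches on the printed strand to the X box, searched as CCNAG followed after 2 bases by AC and after 3 more by TG, and to the Y box core, ATTGG, both of which were searched on both strands. The stretches lie at chr17:34287852-34287931 on the minus strand (H2-Aa), and on the plus strand at chr17:34305748-34305827 (H2-Eb1), chr17:34238788-34238867 (H2-Ob) and chr17:34153070-34153149 (H2-DMb1).
H2-Aa: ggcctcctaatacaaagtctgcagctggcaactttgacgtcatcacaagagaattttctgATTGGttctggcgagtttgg
H2-Eb1: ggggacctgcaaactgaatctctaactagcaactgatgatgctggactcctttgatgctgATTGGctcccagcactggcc
H2-Ob: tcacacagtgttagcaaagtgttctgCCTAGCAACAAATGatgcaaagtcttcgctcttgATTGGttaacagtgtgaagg
H2-DMb1: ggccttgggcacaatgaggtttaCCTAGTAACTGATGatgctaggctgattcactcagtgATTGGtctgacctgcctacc
The X box letters were found in 2 of 8 class II genes with a window, H2-Ob and H2-DMb1, and in 1.16% of all 32851 windows. The Y box core was found in 8 of 8, against 37.4% of all windows, and also in 19 of 22 class I genes with a window. A match is a description of the letters and not evidence of a bound factor. The letters were matched exactly, and the H2-Eb1 stretch holds a near match to the X box that differs at its first base. A window without a match is therefore not shown to lack the box.

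Class I promoters are shown for 6 heavy chain genes because some of them hold letters that were found in no class II window. Capitals mark GGGGATTCC, a kappa B core, and the reverse complement of GAANNGAAA, an interferon-stimulated element. The stretches lie at chr17:34000421-34000464 on the minus strand (H2-K1), and on the plus strand at chr17:35262917-35262960 (H2-D1), chr17:35379437-35379480 (H2-Q4), chr17:35424671-35424714 (H2-Q6), chr17:35439015-35439058 (H2-Q7) and chr17:35469907-35469950 (H2-Q10), in GRCm38.p6.
H2-K1: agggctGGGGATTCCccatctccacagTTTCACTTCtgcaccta
H2-D1: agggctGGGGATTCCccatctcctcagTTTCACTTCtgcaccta
H2-Q4: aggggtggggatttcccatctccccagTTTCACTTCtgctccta
H2-Q6: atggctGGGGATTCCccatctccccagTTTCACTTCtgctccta
H2-Q7: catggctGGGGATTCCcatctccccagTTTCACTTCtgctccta
H2-Q10: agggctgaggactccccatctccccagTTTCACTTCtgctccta
The stretches of H2-K1 and H2-D1 differed at 1 of 44 bases. The interferon-stimulated letters were found in 8 of 22 class I genes with a window and in 7.52% of all windows, and the kappa B letters in 4 of 22 and in 0.250% of all windows. Neither was found in any of the 8 class II windows, and the X box letters were found in none of the 22 class I windows. The letters TTCNNNGAA, a core of gamma-activated sites, were found in 2 of 22 class I genes, 1 of 8 class II genes and 8.30% of all windows.

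Class II genes were listed higher in q2, and none of them passed the test. All 9 tested members of the class II chains and exchange proteins lay above 0, with log2 differences from 0.18 to 1.57 and a median of 0.80 in the authors' deposited table, beside a median of -0.01 over all tested genes. Among all tested genes 0.612% were called at q below 0.05, and among the 45 tested members 0 were, a count that does not stand apart from so small a share. By the unadjusted p below 0.05, which 3.72% of tested genes passed with a higher value in q2, H2-Ob, H2-Eb1 and the joint row H2-Q6,H2-Q8 passed, and no member passed with a lower one, where 2.27% of tested genes did. At least 1.5-fold higher, a threshold chosen after the values were seen, were 7 of 8 class II members that reached 1 FPKM in either condition, against 12.3% of all genes so filtered. No further test was run on these counts.

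H2-Aa and H2-Ab1 encode the alpha and beta chains of I-A, the main class II molecule of the mouse. H2-Aa, at chr17:34282751-34287771 (GRCm38), was listed at 339 FPKM in q1 and 522 FPKM in q2 in the authors' deposited table, a 1.54-fold difference (Cuffdiff p = 0.168, q = 0.999). H2-Ab1, at chr17:34263227-34269418, was at 308 and 495, a 1.61-fold difference (Cuffdiff p = 0.118, q = 0.999, by the authors' deposited table). The pair kept nearly the same proportion, with 1.10 FPKM of H2-Aa per FPKM of H2-Ab1 in q1 and 1.05 in q2. Cd74, at chr18:60803849-60812652, was the most abundant class II gene, at 1621 and 2583 FPKM in the authors' deposited table (1.59-fold, Cuffdiff p = 0.294, q = 0.999), and ranked 44th in q1 and 24th in q2 among all tested genes. Cd74 stood at 4.78 FPKM per FPKM of H2-Aa in q1 and at 4.95 in q2. All 3 genes were thus listed higher in q2 by similar factors, 1.54 to 1.61.

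The beta chain gene of I-E had no expressed partner in either condition. H2-Eb1, at chr17:34305867-34316674, was listed at 137 and 253 FPKM in the authors' deposited table, a 1.85-fold difference with the second-lowest p among class II members (Cuffdiff p = 0.0384, q = 0.768). H2-Ea-ps, the alpha chain gene that GENCODE annotates as a polymorphic pseudogene, was at 0.044 and 0.098 and was not tested by the authors. Mice of the b haplotype, which C57BL/6 and 129 strains carry, are known to lack an E alpha chain. H2-Eb2, a minor beta chain gene, was at 0.16 and 0.44 FPKM in the authors' deposited table.

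The peptide exchange genes split by level. H2-DMa, the alpha chain of H2-DM, was listed at 23.6 and 39.1 FPKM in the authors' deposited table (1.66-fold, Cuffdiff p = 0.0782, q = 0.975). Of its beta chains, H2-DMb1 was at 24.9 and 28.2 (1.13-fold) and H2-DMb2 at 3.65 and 6.37 (1.74-fold) in the authors' deposited table, with Cuffdiff q = 0.999 for each. Of the 50-base windows of H2-DMb1 transcripts in GENCODE vM21, 22.7% also occur in H2-DMb2, so reads could be divided between these near copies and single values are uncertain.

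The 2 genes of H2-DO, which is known chiefly from B cells, were among the lowest class II rows. H2-Ob, its beta chain, was listed at 2.72 and 5.90 FPKM in the authors' deposited table, a 2.17-fold difference with the lowest p of any member (Cuffdiff p = 0.0313, q = 0.727). H2-Oa, the alpha chain, was at 1.39 and 4.11 (2.96-fold, Cuffdiff p = 0.228, q = 0.999, by the authors' deposited table). H2-DMa stood at 17 FPKM per FPKM of H2-Oa in q1 and at 9.52 in q2, and H2-DMb1 at 9.15 and 4.78 per FPKM of H2-Ob. H2-DO was therefore listed below H2-DM in both conditions, by a smaller factor in q2, a change for which no test is given.

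**Figure D1:**
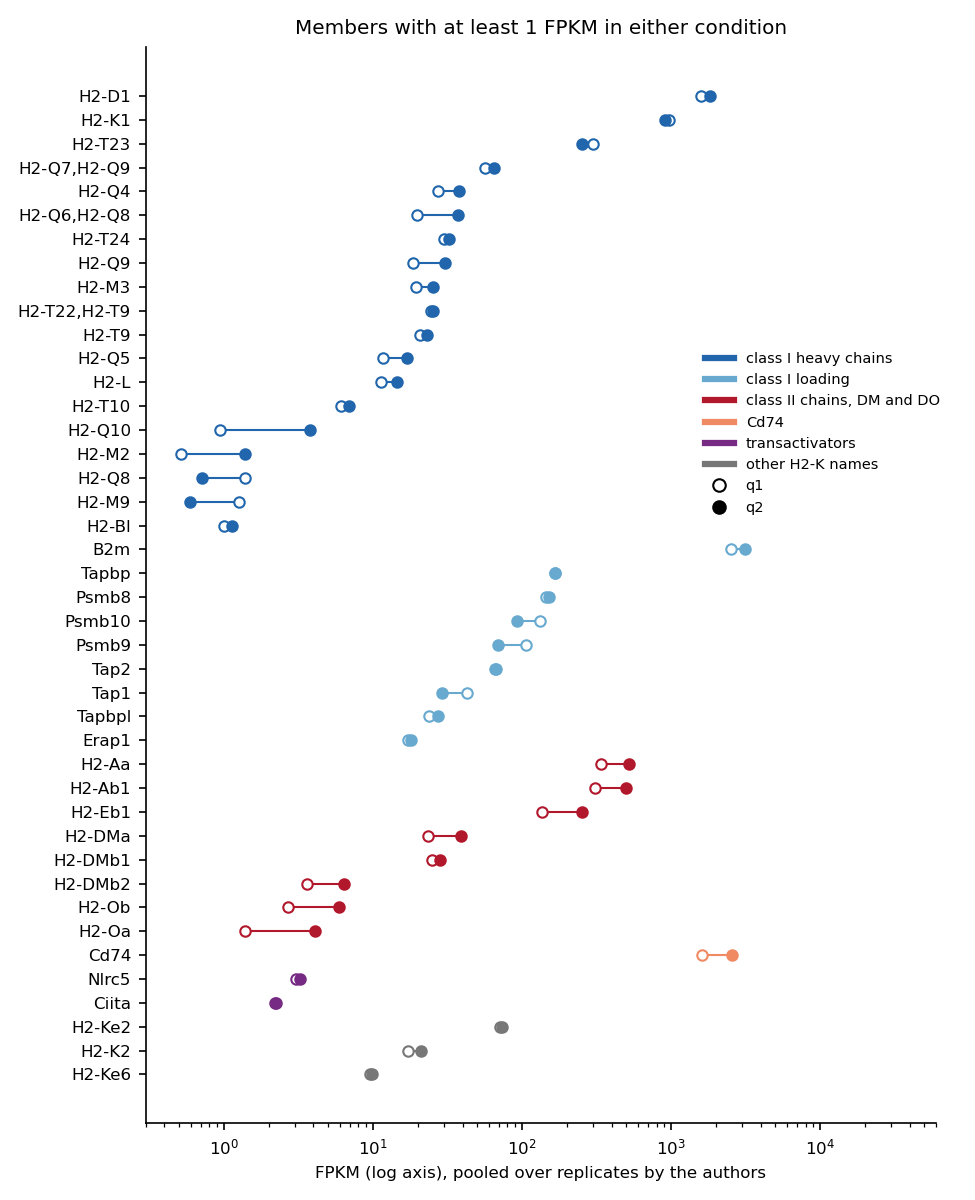
FPKM of the 42 members that reached 1 FPKM in either condition, on a log axis, with q1 as open and q2 as filled circles joined by a line and colours for the member classes. The red class II rows and Cd74 have q2 to the right of q1, while H2-K1, H2-T23, H2-Q8, H2-M9, Psmb9, Psmb10, Tap1 and, by less than its circle, Tap2 have it to the left; no error bars are drawn because each value is pooled.

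By summed FPKM, class I heavy chains made up a larger pool that differed less between conditions. Their summed level was 3122 FPKM in q1 and 3337 in q2, a 1.07-fold difference, where class II chains and exchange proteins summed to 841 and 1354, a 1.61-fold difference. The class II sum thus amounted to 0.269 of the class I sum in q1 and 0.406 in q2. Among 21 tested class I rows, 16 lay above and 5 below 0, and the median over the 20 with values in both conditions was 0.20. The class II median exceeded it by 0.60 on the log2 scale; with 1 pooled value per condition this difference has no error, and it was not tested.

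The classical genes H2-D1 and H2-K1, whose products present peptides to cytotoxic T cells, held 82.3% of the class I sum in q1 and 82.6% in q2. H2-D1, at chr17:35263094-35267497, was listed at 1598 and 1840 FPKM in the authors' deposited table (1.15-fold, Cuffdiff p = 0.675, q = 0.999). H2-K1, at chr17:33996012-34000333, was at 973 and 918 (Cuffdiff p = 0.861, q = 0.999, by the authors' deposited table), the opposite direction. H2-L was listed at 11.3 and 14.6 over exactly the interval of H2-D1. The C57BL/6 genome is known to hold no separate H2-L gene, so its value belongs to reads of that one interval.

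The nonclassical genes were lower and in part share sequence. H2-T23, which encodes Qa-1, the ligand of an inhibitory receptor of NK cells, was listed at 298 and 254 FPKM in the authors' deposited table (log2 difference -0.23, Cuffdiff q = 0.999) and held 9.54% and 7.61% of the class I sum. The joint row H2-Q7,H2-Q9, for the Qa-2 antigen, was at 56.6 and 65.1 FPKM in the authors' deposited table, and H2-Q4 at 27.4 and 38.03. The joint row H2-Q6,H2-Q8 was at 19.9 and 37.6 FPKM in the authors' deposited table, a 1.89-fold difference (Cuffdiff p = 0.0416, q = 0.779), yet the separate row H2-Q8 over the same interval went the other way, from 1.39 to 0.71. H2-Q9 by itself was at 18.6 and 30.7 and H2-Q5, an annotated pseudogene, at 11.7 and 17.04 FPKM in the authors' deposited table.

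Further along the chromosome, H2-T24 was listed at 30.1 and 32.7, the joint row H2-T22,H2-T9 at 24.5 and 25.2, H2-T9 at 20.7 and 23.05 and H2-T10 at 6.15 and 6.93 FPKM in the authors' deposited table. Products of H2-T10 and H2-T22 are bound by some gamma delta T cells. H2-M3, which presents N-formylated peptides of bacteria and mitochondria, was at 19.4 and 25.3 FPKM in the authors' deposited table (Cuffdiff q = 0.999). H2-Q10, known as a secreted class I molecule of liver, had the largest log2 difference of the tested members above 0 in both conditions, 2.0, but at only 0.95 and 3.79 FPKM in the authors' deposited table (Cuffdiff p = 0.0571, q = 0.874). H2-M2 was at 0.51 and 1.4, H2-M9 at 1.27 and 0.59 and H2-Bl at 1.0 and 1.14 FPKM in the authors' deposited table; these rows near 1 FPKM had differences in both directions.

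Reads of class I genes are not easily told apart. In GENCODE vM21, 13 of 27 class I genes with transcripts shared over 10% of their 50-base windows with another member, with a median of 9.63% and up to 36.4% for H2-Q5. Class II genes had a median of 0, and only H2-DMb1 and H2-DMb2 passed 10%. These shares count other members only. Against any other gene, H2-Oa shared 15.5%, H2-DMa 8.43% and H2-Aa 0.514% of windows, and in class I H2-T22 shared 53.5% and H2-T10 50.4%. In the authors' deposited table, 10 member rows also share 5 intervals pairwise, so levels of single H2-Q and H2-T genes are uncertain, while H2-Aa, H2-Ab1, H2-Eb1 and Cd74 share no window with another member.

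Members under 1 FPKM in both conditions numbered 14. Of these, 11 were not tested by the authors, and 5 were listed at 0 in both conditions, all of them H2-M1 and H2-M10 genes, a family known from vomeronasal neurons. The tested ones were H2-Eb2, H2-Q2, at 0.66 and 0.96, and H2-M11, at 0.63 in q1 and listed at 0 in q2 by the authors' deposited table. The others, H2-T3, H2-M5, H2-Q1, H2-Ea-ps, H2-M10.2 and H2-M10.4, lay at or below 0.32 FPKM.

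**Figure D2:**
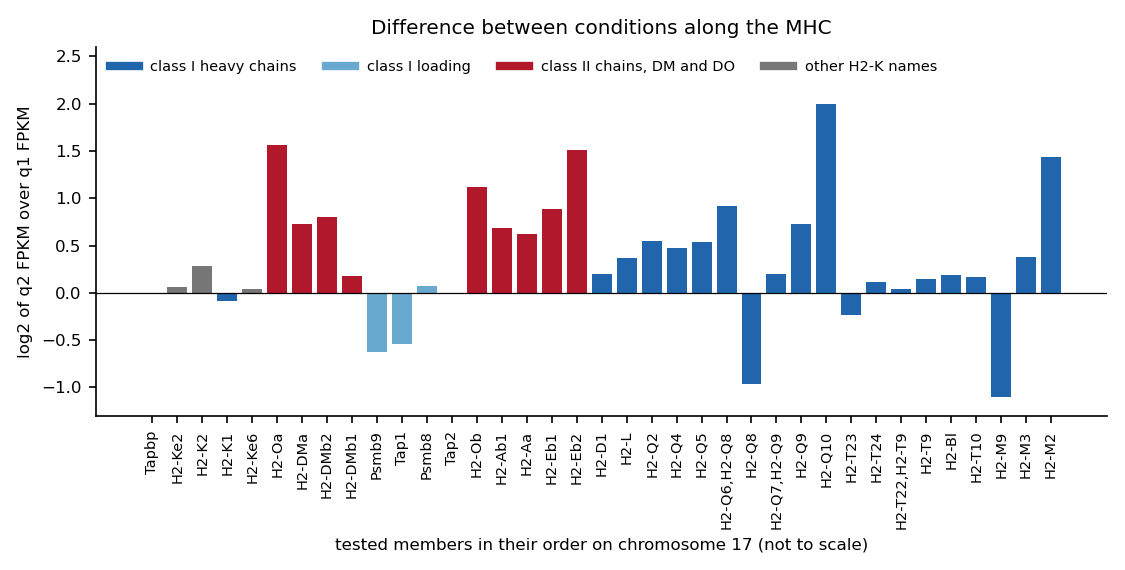
Log2 of q2 over q1 FPKM for the tested members on chromosome 17, in their order along it and not to scale, coloured by class. The class II genes, from 0.18 for H2-DMb1 to 1.57 for H2-Oa, flank the block of Psmb9, Tap1, Psmb8 and Tap2, in which Psmb9 and Tap1 lie below 0; H2-M11, listed at 0 in q2, has no bar.

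Genes of class I peptide supply lay on both sides of 0. The 9 loading members, all tested, had log2 differences from -0.63 to 0.32 with a median of 0.00, with 5 above and 4 below 0. B2m, at chr2:122120108-122186189, was listed at 2514 and 3139 FPKM in the authors' deposited table (1.25-fold, Cuffdiff p = 0.516, q = 0.999), the highest level of any member and rank 26 and 20 among tested genes. Its interval in the table spans 66.1 kb, longer than the gene itself. Tapbp, the tapasin that holds class I to the transporter, was at 168 and 168 FPKM in the authors' deposited table, Tapbpl at 24.0 and 27.4, and Erap1 at 17.2 and 18.1.

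Psmb9, Tap1 and Psmb10 had the largest differences of the 4 loading genes listed lower in q2. Psmb9 was at 107 and 68.9 FPKM in the authors' deposited table, 1.55-fold lower in q2 (Cuffdiff p = 0.123, q = 0.999). Tap1 was at 42.7 and 29.3 (1.46-fold lower, Cuffdiff p = 0.174, q = 0.999, by the authors' deposited table). Psmb10, on chromosome 8 at 105935728-105938392, was at 133 and 93.4 (1.42-fold lower, Cuffdiff p = 0.189, q = 0.999, by the authors' deposited table). Their neighbours or partners stayed near 0 on the log2 scale: Psmb8 was at 145 and 152, and Tap2, the other transporter chain, at 66.99 and 66.5 FPKM in the authors' deposited table. Tap1 thus went from 0.637 to 0.440 FPKM per FPKM of Tap2, and Psmb9 from 0.735 to 0.452 per FPKM of Psmb8, again with no test of the difference. Of the loading members 1 of 9, Psmb9, was at least 1.5-fold lower, against 10.1% of all tested genes with at least 1 FPKM, which is near that background.

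Psmb9 and Tap1 are transcribed away from each other, and their shared promoter is shown because both lay lower by similar factors. Their starts lie 226 bases apart, Psmb9 on the minus strand from chr17:34187330 and Tap1 on the plus strand from chr17:34187556. The stretch common to both RefSeq windows, chr17:34187306-34187580 in GRCm38.p6, is printed on the plus strand with matches to the X box and the reverse complement of the Y box core in capitals.
Psmb9 and Tap1: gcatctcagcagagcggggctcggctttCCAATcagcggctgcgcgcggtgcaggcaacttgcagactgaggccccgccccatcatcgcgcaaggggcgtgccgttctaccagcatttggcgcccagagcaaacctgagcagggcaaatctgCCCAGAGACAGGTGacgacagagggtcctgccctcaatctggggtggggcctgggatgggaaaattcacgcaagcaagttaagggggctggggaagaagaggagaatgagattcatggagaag
The X box letters lie 98 to 85 bases before the Tap1 start. These were the only loading members with the X box letters among 7 with a window, and the interferon-stimulated letters were found in none of the 7.

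The summed level of the immunoproteasome subunits stood at 1.08 times that of the constitutive ones in q1 and at 0.863 times in q2, with no test of the difference. Psmb5 was listed at 76.0 and 83.8, Psmb6 at 194 and 190, and Psmb7 at 85.0 and 90.9 FPKM in the authors' deposited table, each with Cuffdiff q = 0.999. The share of Psmb8, Psmb9 and Psmb10 in the summed FPKM of the 6 catalytic subunits was 52.0% in q1 and 46.3% in q2. By pair, Psmb8 stood at 1.91 and 1.82 FPKM per FPKM of Psmb5, Psmb9 at 0.549 and 0.362 per FPKM of Psmb6, and Psmb10 at 1.57 and 1.03 per FPKM of Psmb7. The proteasome activator genes Psme1, at 220 and 212, and Psme2, at 331 and 312 FPKM in the authors' deposited table, differed by less than 0.1 on the log2 scale.

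**Figure D3:**
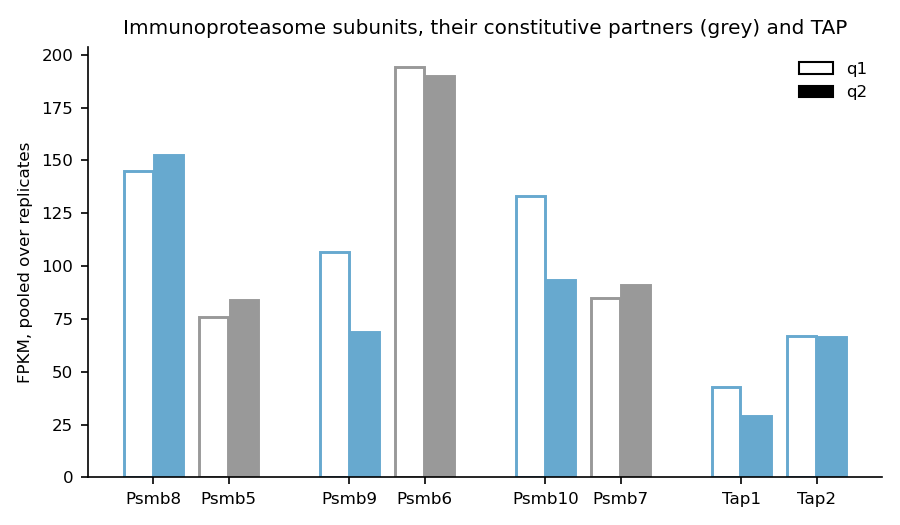
FPKM in q1 (open bars) and q2 (filled bars) of the immunoproteasome subunits, each beside the constitutive subunit it replaces in grey, and of both transporter chains. Psmb9, Psmb10 and Tap1 have the lower bar in q2, at 68.9, 93.4 and 29.3, while Psmb8, Tap2 and the grey subunits have bars of nearly equal height; the values are pooled and carry no error bars.

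The transactivators were low and listed at nearly the same level in both conditions. Ciita, the master regulator of class II genes, at chr16:10480072-10527564, was at 2.22 and 2.26 FPKM in the authors' deposited table (log2 difference 0.02, Cuffdiff p = 0.964, q = 0.999). Nlrc5, its class I counterpart, at chr8:94472763-94527272, was at 3.05 and 3.24 (log2 difference 0.09, Cuffdiff p = 0.857, q = 0.999, by the authors' deposited table). The class II sum was listed 1.61-fold higher and Ciita 1.02-fold higher, and a relation between them was not tested. None of 7 genes for X and Y box binding proteins was called; Nfyc, at 24.3 and 29.7, Nfyb, at 21.7 and 22.5, and Creb1, at 10.4 and 10.1 FPKM in the authors' deposited table, had the highest means. Rfx5, an X box binding protein, had the largest difference of the list, at 2.50 and 1.28 (log2 difference -0.96, Cuffdiff p = 0.101, q = 0.999, by the authors' deposited table). The other H2-K rows, H2-Ke2 (a prefoldin subunit, 70.8 and 74.0), H2-K2 (a class I pseudogene, 17.3 and 21.0) and H2-Ke6 (a steroid dehydrogenase, 9.64 and 9.88 FPKM in the authors' deposited table), had log2 differences of 0.04 to 0.28.

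Other genes of the pathway were counted from lists chosen with earlier results of these data known. In the endosomal path, where class II chains meet peptide, none of 5 tested genes was called and all lay above 0, with a median of 0.43. Cd63, an endosomal membrane protein, was at 485 and 521, Ctsl, a cathepsin, at 157 and 212, and Ctss, the cathepsin that degrades the invariant chain, at 98.8 and 218 FPKM in the authors' deposited table (log2 difference 1.15, Cuffdiff p = 0.0195, q = 0.588). Chaperones of the endoplasmic reticulum lay near 0, with none of 3 called: Pdia3 was at 196 and 166, Calr at 172 and 161 and Canx at 115 and 116 FPKM in the authors' deposited table. On the interferon gamma path 1 of 8 tested genes was called: Ifng was listed at 0 in q1 and at 1.34 FPKM in q2, by the authors' deposited table (Cuffdiff q = 0.0108), so no fold is given. In the authors' deposited table Irf1, a transcription factor induced by interferon gamma, was at 536 and 542. Of kinases of the receptor, Jak1 was at 66.1 and 56.7 FPKM in the authors' deposited table (Cuffdiff q = 0.999). Jak2 was at 16.3 and 9.0 (Cuffdiff p = 0.0217, q = 0.624, by the authors' deposited table). Irf8, a transcription factor of myeloid and B cells, lay the other way, at 15.8 and 28.1 (log2 difference 0.83, Cuffdiff p = 0.0221, q = 0.627, by the authors' deposited table).

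Markers of cells known to carry class II were counted from lists of B cell, dendritic cell and macrophage genes, in which 1 gene, Ccr7, was called. Of 7 B cell markers, 6 were tested and all 6 lay above 0, with a median of 1.94 and a summed level of 13.7 FPKM in q1 and 46.9 in q2; none was called, the lowest Cuffdiff q in the authors' deposited table being 0.171. Cd79a was at 4.93 and 19.3 and Cd79b, the other signalling chain of the B cell receptor, at 3.65 and 9.13 FPKM in the authors' deposited table, and no B cell marker was at 0, although Pax5, at 0.12 and 0.03, was not tested. Dendritic cell markers had a median of 0.17 over 8 genes, 5 above and 3 below 0, and summed to 61.9 and 67. Among them Ccr7, the receptor that guides mature dendritic cells and lymphocytes, rose from 2.54 to 13.4 FPKM in the authors' deposited table (Cuffdiff q = 0.0275). Macrophage markers, with 5 of 9 above 0 and a median of 0.12, summed to 740 and 905, and none was called. C1qb was at 319 and 468, Cd68 at 102 and 120 and C1qc at 89.05 and 96.5 FPKM in the authors' deposited table.

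Monocyte, T and NK cell and neutrophil lists each held called genes. Of 4 monocyte markers, all above 0, Ly6c2 and Ccr2 rose, from 11.0 to 124 and from 7.41 to 25.4 FPKM in the authors' deposited table, and the list summed to 348 and 620. Most of that sum was Ccl2, which was not called, at 321 and 431 FPKM in the authors' deposited table (Cuffdiff q = 0.999). All 6 tested T and NK cell markers lay above 0, with Nkg7 called (3.37 and 27.6 FPKM in the authors' deposited table), and the 7 in the table summed to 7.98 and 45.3. All 8 neutrophil markers rose, with summed levels of 1166 and 15162; they were S100a8, S100a9, Ngp, Camp, Ltf, Mpo, Lcn2 and Retnlg. Endothelial markers, 6 of 6 below 0 and none called, summed to 1953 and 1668. Satellite cell markers, 4 of 8 above 0 with a median of -0.09, summed to 348 and 405, of which Sdc4, the sorting marker, was at 173 and 269.7 FPKM in the authors' deposited table. Fibro-adipogenic markers summed to 6292 and 5504, and no gene of either list was called. The part of these cells in the class II values was not tested.

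**Figure D4:**
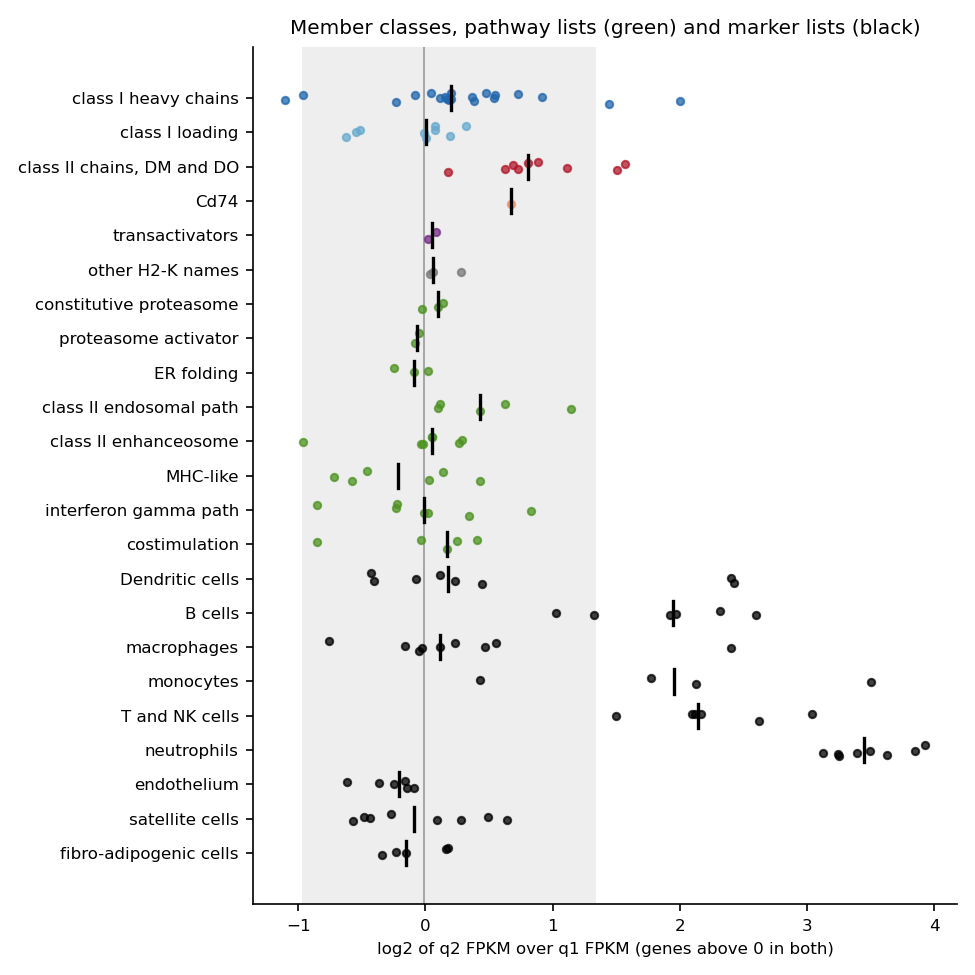
Log2 of q2 over q1 FPKM for tested genes above 0 in both conditions, by member class, pathway list and marker list, with a vertical tick at each median; the grey band runs from the 5th to the 95th percentile of all tested genes, -0.96 to 1.33, and the grey line is their median. Class II members centre on 0.80 and class I loading members on 0.00, both medians lying inside the band, while neutrophil markers centre on 3.44.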

How the data were processed

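RNA sequencing of 3 WT and 3 AUF1-null samples was read from 1 table with the layout of a Cuffdiff gene comparison. The submitters' processing notes name TopHat2 2.0.9, Cufflinks 2.2.1 and the build mm9; of the annotation, strand setting and library normalization nothing is given in the sources used here. The positions fit GRCm38: 99.7% of 13899 tested genes with a GENCODE vM21 symbol, and all 51 such members, overlapped their gene, so positions are given in GRCm38, 1-based. The authors deposited 1 value per gene and condition, which that layout gives as FPKM although the headings name no unit, the log2 of their ratio, a test statistic used here as a score only (no value of it is printed), and for each gene a p-value and a q-value. Per-sample depth was not analysed here, so no interval is printed.

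A gene was called at status OK and q below 0.05. Of 23361 rows 14858 were tested, 8499 had the status NOTEST and 4 HIDATA. Adjusting the deposited p by Benjamini-Hochberg over tested genes gave the deposited q within 5.1e-07. Medians used tested genes above 0 in both conditions and no pseudocount. Sums, ratios, motif matches and shared 50-base transcript windows were computed with Python 3.11.15 and pandas 2.3.3. The adjustment was checked on simulated p-values against another implementation. Every member with at least 1 FPKM was named. From each pathway list the called genes were named, otherwise the 3 with the highest mean; Hnrnpd, Pax7, Myf5, Jak2, Irf1, Irf8, Rfx5 and Pax5 were named outside that rule, endothelial, satellite cell and fibro-adipogenic lists are given mainly by sums, and some genes of the lists are not reported here. Members and lists were chosen with earlier results of these data known.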

Additional observations from a re-analysis of the deposited data

How the results depend on the processing

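Of 62 alternative values, 47 moved by less than 0.1 on the log2 scale or, for counts, by at most 1.5 times. The other 15 moved more. The immunoproteasome share was judged on the scale of its ratio to the constitutive subunits. No median or difference of medians changed sign, and a reversal was not looked for among counts, shares and ratios. Some of the 47 could not move, because the setting kept the same rows or shifted both classes alike. No member was called, higher or lower, at q below 0.1 or after adjusting p again over genes that reached 1 FPKM; by unadjusted p below 0.05, 3 were higher and 0 lower. With summed FPKM in place of medians, the log2 difference was 0.10 for class I, 0.69 for class II and 0.23 for class I loading, where B2m makes up most of the sum. A pseudocount of 1 gave 0.68 for class II and 0.48 for class II minus class I. From means of log2 FPKM, the immunoproteasome share was 54.1% in q1, and the class II to class I ratio 0.999 in q1 and 1.70 in q2. Such means weight low class I rows as much as H2-D1. By that measure class II stood above class I in q2, the opposite order to the sums. At 2-fold, chosen after seeing the data, 2 of 8 class II members passed. Within 150 bases before the start, 5 class I promoters held the interferon-stimulated letters, 2 the kappa B letters and 0 the gamma-activated letters; 0 class II promoters held the last, and 2 loading promoters held the Y box core. No paired analysis was possible because the table holds 1 pooled value per condition, and leaving out a replicate was not possible for the same reason. Unknown depth limits the rows near or under 1 FPKM.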

Other observations

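Molecules built like class I and the signals that accompany antigen presentation were also measured. Of 7 MHC-like genes, 6 were tested and none was called (median -0.21). Fcgrt, the neonatal Fc receptor chain that pairs with beta-2 microglobulin, was at 324 and 331, Procr, the endothelial protein C receptor, at 186 and 125, and Hfe, which takes part in iron sensing, at 23.02 and 25.4 FPKM in the authors' deposited table. None of 5 tested costimulatory and checkpoint genes was called. Cd274, which encodes the checkpoint ligand PD-L1, was at 40.3 and 22.4 FPKM in the authors' deposited table (Cuffdiff p = 0.0396, q = 0.774), the opposite direction to the class II chains. Icosl was at 11.4 and 11.2 and Cd86, a costimulatory ligand for T cells, at 10.4 and 12.4 FPKM in the authors' deposited table.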
